A study of Mus musculus with 5 samples.

Results

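The genes described here encode the machinery that brings proteins into mitochondria and folds them there. They were chosen by name, as every gene with its own probe set (a group of array probes for 1 transcript) whose symbol starts with Tomm or Timm, together with Hspd1, Hspe1, Hspa9, Phb and Phb2. This gave 28 of the 18193 genes that the array names by a single symbol, of which 8 belong to the Tomm or outer membrane group, 16 to the Timm or inner membrane group and 4 to the chaperones and prohibitins. Probe sets for Tomm5, Tomm6 and Phb carry the symbol of a second gene as well and were kept out of this comparison. Of the 28 members 26 were bright enough to be tested among 12082 genes, and the other 2, Tomm20l and Timm8a2, are described at the end of their groups.

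The study compared germinal centre B cells, which divide and select mutated antibodies after immunization, from spleens of C57BL/6 mice of 12 weeks, sorted by flow cytometry at day 7 after sheep red blood cells (SRBC) were given. The 3 WT samples came from mice with the Cg1-Cre allele alone, which the series title calls eGFP-. The 2 REL samples were eGFP+ cells of littermates with the same Cg1-Cre and with relfl/fl, loxP-flanked alleles of Rel, which encodes c-Rel, an NF-kB subunit. Cre was therefore present in both groups, and Cg1-Cre is driven from the immunoglobulin gamma 1 constant region, which germinal centre B cells transcribe. Each sample was 1 single-colour Affymetrix array, read as MAS5 signals on a linear scale. Whether each array came from its own animal is not in the labels, so the p-values measure the spread between these arrays, which may be technical.

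Nearly all mitochondrial proteins are made in the cytosol and enter through the TOM complex of the outer membrane, where receptors such as Tom20, Tom22 and Tom70 bind them and Tom40 forms the pore. Proteins with a presequence pass on through the TIM23 complex, pulled by the matrix chaperone mortalin (Hspa9), and are folded by the Hsp60 and Hsp10 chaperonin (Hspd1 and Hspe1). Carrier proteins are escorted across the intermembrane space by the small Tim chaperones and inserted by the TIM22 complex, and the prohibitins form ring-shaped scaffolds in the inner membrane. Proliferating germinal centre B cells are known for high mitochondrial activity.

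Promoter sequences were read from RefSeq (GRCm38.p6) for 24 of the 28 members, as windows from 250 bases before to 50 after each transcription start. Hspa9, Timm21, Tomm40l and Tomm7 had no entry. Hspd1 and Hspe1 are shown because they encode partners of the same folding chamber and are read from opposite strands. A further reason is that the ratio of their signals was lower on the REL arrays, as described further on, which was not tested. RefSeq gives Hspd1 2 starts, one at 216 bases before and the other at 95 bases after the Hspe1 start. The 300-base window of the first shares 285 bases with that of Hspe1, and the window of the other shares 4. The 250 bases before the Hspe1 start, on the plus strand at chr1:55087898-55088147, are printed with the letters GAANNTTC, the pair of inverted units of a heat shock element, in capitals. This match lies 84 bases before the Hspe1 start.
Hspe1 upstream: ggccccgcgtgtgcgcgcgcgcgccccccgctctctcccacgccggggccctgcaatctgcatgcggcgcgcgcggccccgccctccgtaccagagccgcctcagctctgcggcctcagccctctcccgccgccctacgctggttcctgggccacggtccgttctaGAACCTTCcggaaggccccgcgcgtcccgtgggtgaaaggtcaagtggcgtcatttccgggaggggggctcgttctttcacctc

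The sites below hold CACGTG, the E-box to which Myc and related factors bind, given in capitals with 12 bases on either side and each written along its gene's strand. They are shown because 4 of the 6 member genes with such a match, Hspd1, Timm8a1, Timm9 and Timm10, are among the 10 members whose REL arrays were both under every WT array. Tomm20 is printed as the tested gene with a match that is not among the 10, and Tomm20l, below the filter, is not printed. The sites were chosen after the signals were seen, and a link between match and signal was not tested. The first base of the match lies 80 bases before the second of these starts in Hspd1 (chr1:55088306-55088335, minus strand), 236 before and at base 25 after it in Timm8a1 (chrX:134541889-134541918 and chrX:134541629-134541658, minus), 58 and 1 before it in Timm9 (chr12:71136716-71136745 and chr12:71136659-71136688, minus), at base 29 after it in Timm10 (chr2:84827037-84827066, plus) and 126 before it in Tomm20 (chr8:126946030-126946059, minus).
Hspd1: ggccggctgggaCACGTGaaaaggccgcgc
Timm8a1 upstream: ccttcagtggacCACGTGggatgaagcaac
Timm8a1 downstream: ccgtcacccagaCACGTGaaggtcggcaag
Timm9 upstream: cctacattttccCACGTGgtaacgaatctg
Timm9 at the start: catcactgccccCACGTGttctcagctttc
Timm10: ccggaagtgaccCACGTGcttcttatttcg
Tomm20: gcacgccacaaaCACGTGctgcccctgacc

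CACGTG was found in 6 of the 24 member genes (25%; the sixth is Tomm20l) and in 8.09% of all 27025 genes with a window. Among members with a window it was found in 4 of the 8 whose REL arrays were under the WT range and in 2 of the 16 others. The 16 include Tomm20l and Timm8a2, which were below the filter. This split was made after the signals were seen and was not tested. GAANNTTC was found in 12.5% of the member genes (Hspd1, Hspe1 and Timm9) and 9.04% of all genes. The Hspe1 match lies within the 285 bases shared with the first Hspd1 window, so that this 1 site counts for both genes. A loose form of the kappaB motif, the site that NF-kB subunits bind, was found in 66.7% and 53.5%. Both strands were searched, the motifs were counted independently of one another, and a match is a description of the letters with no test and no measure of binding.

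The signals of Rel itself were 492, 134 and 206 with WT cells, against 18.6 and 85.2 with REL cells. Its difference was −2.12 (SE 0.73) with a limma adjusted p of 0.46, and the labels do not say whether its probe set lies in the deleted part. The median signal of the arrays ran from 40.7 to 54.6 over the WT arrays, with 48.1 and 30.1 for REL, and pairs of arrays correlated at 0.928 to 0.955 over all probe sets. The ratio of 3′ over 5′ signal of Actb, which rises as RNA is degraded, ran from 1.58 to 2.45 over the WT arrays, with 1.64 and 1.73 for REL. Of the 11 germinal centre B cell markers on the array, Ms4a1 (CD20) was at 12227 to 14851 and Bcl6 at 7619 to 10515. Pax5 was the dimmest, at 71.4 to 209, and Rgs13 was the one marker with both REL arrays (4514 and 3321) under the WT range of 4960 to 6058. The summed signal of the 11 was 62579 to 77005 in WT and 62599 and 70655 in REL.

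The 18 macrophage and monocyte markers on the array, of which 15 passed the filter on dim probe sets, had a summed signal of 1440 to 2493 in WT and of 9109 and 7364 in REL. In 13 of the 18 both REL arrays were over every WT array, 4 overlapped, and in Adgre1 (F4/80) both REL arrays (120 and 116) were under the WT range of 154 to 435. Of all genes tested, both REL arrays were above every WT array in 9.53% and below in 14.3%. The marker counts here include genes below the filter. The defining markers C1qb and Csf1r were at 3.91 to 33.1 in WT and at 528 to 786 in REL, and C1qa was below the filter on average. The 7 stromal and endothelial markers summed to 233 to 361 in WT and to 863 and 394 in REL, with both REL arrays above every WT array in 2 and below in 0. The 5 erythroid markers summed to 165 to 566 in WT and to 117 and 54 in REL. Of these, both REL arrays were below every WT array in 2 and above in 1, the dim Hba-a1. The sums of T cell, neutrophil and plasma cell markers overlapped between the groups. Within these lists both REL arrays were under the WT range in Ltf (neutrophil) and Sdc1 (plasma cell) and over it in Xbp1 (plasma cell). The part of these other cells in the differences below was not tested. In samples of many cells, fewer cells of a type and less RNA per cell cannot be told apart.

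Across the import and folding genes, most members lay lower in REL than in WT, by small amounts. Of the 26 tested, 20 had a difference below 0 and 6 above, where 56.8% of all genes lay below 0. When the arrays were centred on their medians it was 15 and 11, where 40.6% of all genes lay below 0. After quantile normalization it was 18 and 8, against 53.9%. Differences are given as REL minus WT on the log2(signal + 16) scale, with the standard error from the fit. The median difference was −0.25 over the members and −0.07 over all genes tested, and 16 of the 26 lay below that median of all genes. With centring the median of all genes went from −0.07 to 0.10 and that of the members to −0.08. Centring moves every difference by the same amount, so that the distance between the medians, −0.18, could not change.

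No member was called at an adjusted p under 0.05 in limma, where 0.00828% of all genes were called, the single gene being the macrophage marker Vcam1. The members' adjusted p ran from 0.4 to 0.985. At an unadjusted limma p under 0.05, 7 members lay lower and 0 higher, against a background of 4.99% lower and 3.24% higher. With median centring none of the 7 remained at that level. After quantile normalization 8 members lay lower and 0 higher at it, and without the mean-variance trend 1 member was under it. In 10 of the 26 (38.5%) both REL arrays were under every WT array, against 14.3% of all genes, and in 0 both lay above, against 9.53%. With so few arrays and an adjustment over 12082 genes, the lack of calls does not show that the members were unchanged.

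The shift was carried mainly by REL replicate 1. On that array 21 of the 26 members lay below every WT array (80.8%, against 31.2% of all genes), and on REL replicate 2 it was 11 (42.3%, against 34.7%). Above every WT array on REL replicate 2 lay 7 of the 26 members and 2970 of all 12082 genes. The median deviation of the members from the WT mean was 0.01, 0.02 and −0.03 on the WT arrays, −0.42 on REL replicate 1 and −0.07 on REL replicate 2, and that of all genes was −0.05, 0.01, 0.06, −0.03 and −0.09. Without REL replicate 1 the median of the members was −0.07 and that of all genes −0.10. Without REL replicate 2 they were −0.43 and −0.03.

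**Figure D1:**
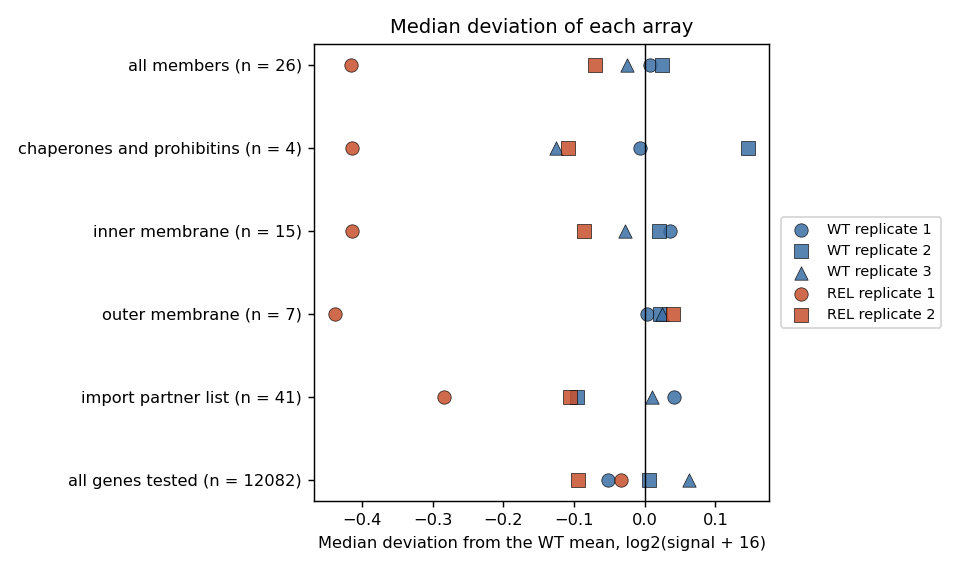
Median deviation of each array from the WT mean (horizontal axis, log2(signal + 16)) for all genes tested, the import partner list, each group of members and all members; the symbols are the 3 WT and 2 REL arrays. REL replicate 1 stands at −0.44 to −0.41 in the 3 member groups, and REL replicate 2 lies within the WT range for the chaperones and prohibitins and above it for the outer membrane group.

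In the outer membrane group 5 of the 7 tested members lay lower (71.4%, against 56.8% of all genes), with a median of −0.23. Both REL arrays were below every WT array in 3 (42.9%, against 14.3%) of this group. Without REL replicate 1 its median was 0.04, so that this group had no lower median on REL replicate 2 alone. Tomm70a encodes Tom70, the receptor for carrier precursors that chaperones deliver from the cytosol. Its signals were 2217, 2642 and 3011 on the WT and 1225 and 1598 on the REL arrays. Both REL arrays were under every WT array, and the difference of −0.89 (SE 0.25, limma adjusted p = 0.4) was the furthest from 0 of the 26, although it was −0.44 with the mean of its probe sets. Of its other probe sets past the filter, those at −0.57 and −0.65 also had both REL arrays below every WT array, and a dimmer one lay at 0.34.

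Tomm7 encodes a small subunit that modulates the stability of the TOM complex. Its signals were 6184, 8145 and 7281 on the WT and 5279 and 4795 on the REL arrays, with no overlap, and the difference was −0.51 (SE 0.17, adjusted p = 0.451). Its other 2 probe sets past the filter lay at −0.47 and −0.53, so that the 3 were close to one another. Tomm40, the pore, was dim beside these, with 402, 368 and 317 on the WT and 313 and 277 on the REL arrays. The REL arrays were again the lowest, but REL replicate 1 hardly differed from WT replicate 3, and the difference of −0.28 was smaller than its SE of 0.47 (adjusted p = 0.928).

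The receptor subunits that take up presequences did not separate the groups. Tomm22, the central receptor, had 8138, 7854 and 8269 on the WT and 5955 and 9052 on the REL arrays, so that the REL arrays lay on either side of a narrow WT range. Its difference was −0.14 (SE 0.18), 0.03 with median centring, and its second probe set was at 0.10. Tomm20, the presequence receptor, lay at 0.06 (SE 0.13), with 8602 to 9563 in WT and 8928 and 9648 in REL. Its 6 probe sets ran from −0.11 to 0.15. The 95% confidence interval of the difference was −0.55 to 0.27 for Tomm22 and −0.24 to 0.35 for Tomm20. That of Tomm70a was −1.45 to −0.32, which overlaps with the interval of Tomm22, and the differences between genes were not tested.

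Tomm40l, a paralogue of the pore gene, had 951, 808 and 655 on the WT and 557 and 818 on the REL arrays, a difference of −0.23 (SE 0.38). Tomm34, whose product is a cochaperone found mainly in the cytosol, had 7327, 8029 and 6641 on the WT and 6679 and 9273 on the REL arrays, a difference of 0.11 (SE 0.18). In both the REL arrays overlapped with WT. Tomm20l, a relative of the presequence receptor gene, was below the filter, with 8.37 to 18.6 over the 5 arrays.

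**Figure D2:**
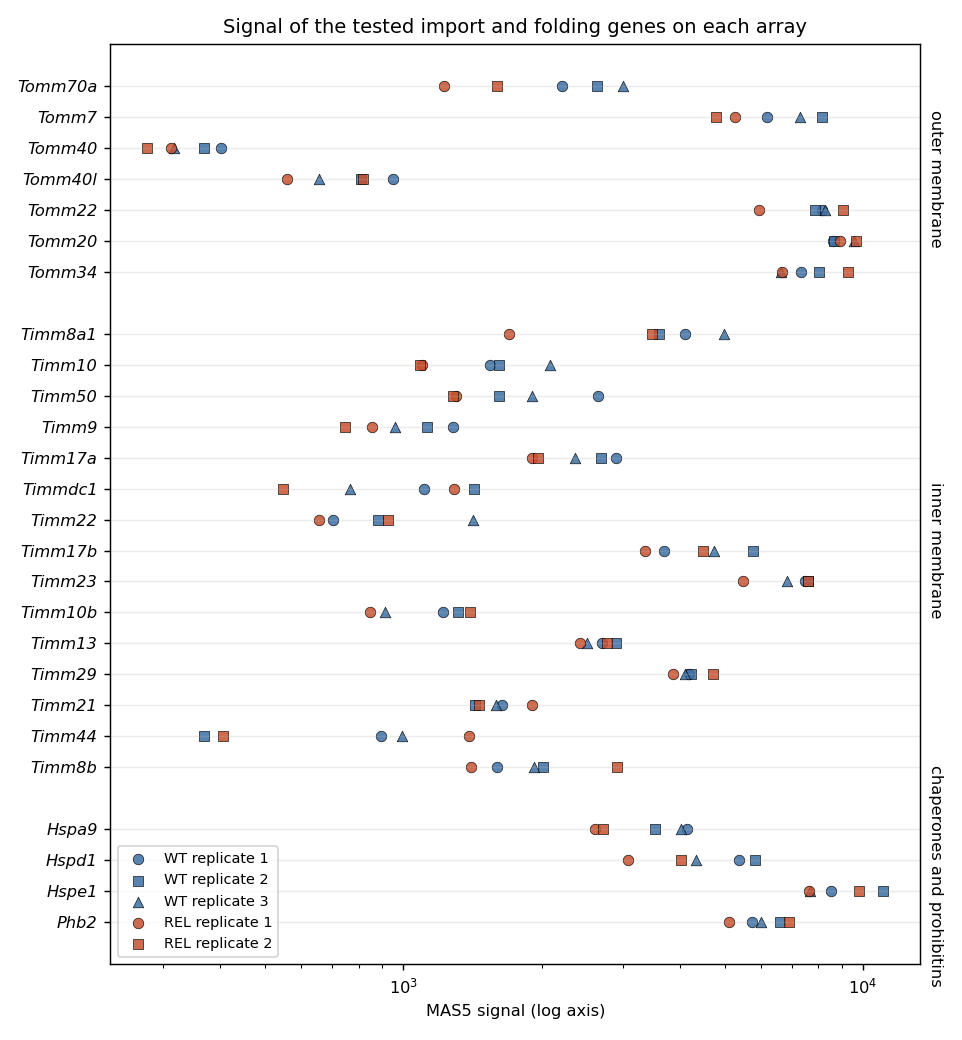
MAS5 signal (horizontal log axis) of the 26 tested members on the 3 WT arrays (blue) and the 2 REL arrays (orange), in their 3 groups, 1 row per gene and 1 symbol per array. Both REL symbols lie left of every WT symbol in 10 genes, among them Tomm70a (1225 and 1598 against 2217 to 3011), and in Timm10, Timm50 and Timm17a the REL arrays nearly coincide.

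In the inner membrane group 11 of the 15 tested members lay lower (73.3%, against 56.8% of all genes), with a median of −0.26. In 5 (33.3%, against 14.3%) both REL arrays were under every WT array. Among the small Tim chaperones, hexamers of the intermembrane space that shield hydrophobic precursors, 5 of 6 tested members lay lower (83.3%, median −0.27). Timm8a1, whose product pairs with Tim13, had 4108, 3592 and 4997 on the WT and 1694 and 3470 on the REL arrays. Both REL arrays were the lowest, REL replicate 2 by a small margin, and the difference was −0.79 (SE 0.30, adjusted p = 0.503). Without REL replicate 1 it was −0.27. A second, dimmer Timm8a1 probe set was at 0.01.

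Timm10 and Timm9 encode partners in the hexamer that escorts carrier proteins. Timm10 had 1546, 1619 and 2085 on the WT and 1096 and 1089 on the REL arrays. The REL arrays were close to each other and below the whole WT range, and the difference was −0.66 (SE 0.27, adjusted p = 0.568). Timm9 had 1284, 1126 and 958 on the WT and 853 and 748 on the REL arrays, also without overlap, with a difference of −0.47 (SE 0.32, adjusted p = 0.755). A dimmer Timm9 probe set was at −1.60 (SE 0.77), with 23.3 and 173 in REL and 141 to 324 in WT, so that it overlapped.

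The other small Tims differed little on average. Timm13 lay at −0.06 (0.11 with median centring), Timm10b at −0.06 (0.11 with median centring) and Timm8b at 0.14, and in each of them the 2 REL arrays lay apart from each other, REL replicate 1 being below every WT array. Timm8b was at 1406 on REL replicate 1 and 2916 on REL replicate 2, on either side of 1602 to 2018 in WT. Of the 4 Timm10b probe sets 3 lay lower and the dimmest at 1.04 (SE 0.78). Timm8a2, a close relative of Timm8a1, was below the filter, with 1.91 to 63.2 over the 5 arrays.

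The presequence translocase and its motor had 6 tested members, 4 of them lower (66.7%, against 56.8% of all genes, median −0.22). Timm50 encodes the receptor that takes presequences from the TOM complex. It had 2653, 1619 and 1904 on the WT and 1303 and 1283 on the REL arrays, without overlap, and a difference of −0.63 (SE 0.28, adjusted p = 0.606). Timm17a, a subunit of the channel with a short-lived protein, had 2898, 2690 and 2358 on the WT and 1907 and 1960 on the REL arrays. Again the REL arrays were close together and below every WT array, with a difference of −0.45 (SE 0.22, adjusted p = 0.646). In these 2 genes and in Timm10, REL replicate 2 was about as low as REL replicate 1, whereas the median deviation of the whole inner membrane group was −0.41 on REL replicate 1 and −0.09 on REL replicate 2.

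Timm17b, the paralogue of Timm17a, had 3689, 5766 and 4743 on the WT and 3358 and 4486 on the REL arrays, which overlapped, and a difference of −0.26 (SE 0.23). Timm23, the channel subunit itself, had 7490, 7609 and 6841 on the WT and 5478 and 7602 on the REL arrays. Its low value was on REL replicate 1 alone, the difference was −0.18 (SE 0.17), and without that array it was 0.06. Timm21, which links the translocase to the TOM complex, was at 0.10 (SE 0.26). Timm44, which tethers mortalin to the channel, was at 0.13 (SE 0.59) by its brightest probe set, with 369 to 991 in WT and 1393 and 406 in REL. Its second-brightest probe set gave 616, 446 and 376 on the WT and 1000 and 792 on the REL arrays, both REL arrays above every WT array, with a difference of 0.90 (SE 0.40, adjusted p = 0.607).

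Of the carrier translocase, Timm22, the insertion channel, was at −0.29 (SE 0.39) and overlapped, with 704 to 1415 in WT and 656 and 927 in REL. Its dimmer probe set was at 150, 671 and 363 on the WT and 42.1 and 117 on the REL arrays, a difference of −2.0 (SE 0.73, adjusted p = 0.502), so that the probe sets of this gene gave very different sizes. Timm29, a further subunit of that complex, was at 0.03 (SE 0.18) by its brightest and at 0.98 (SE 0.47) by a dimmer probe set, in which REL replicate 2 stood at 1801. Timmdc1 carries the name of the family but encodes an assembly factor of respiratory complex I. It had 1110, 1426 and 764 on the WT and 1291 and 547 on the REL arrays, and its difference of −0.33 (SE 0.44) was 0.27 without REL replicate 2.

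**Figure D3:**
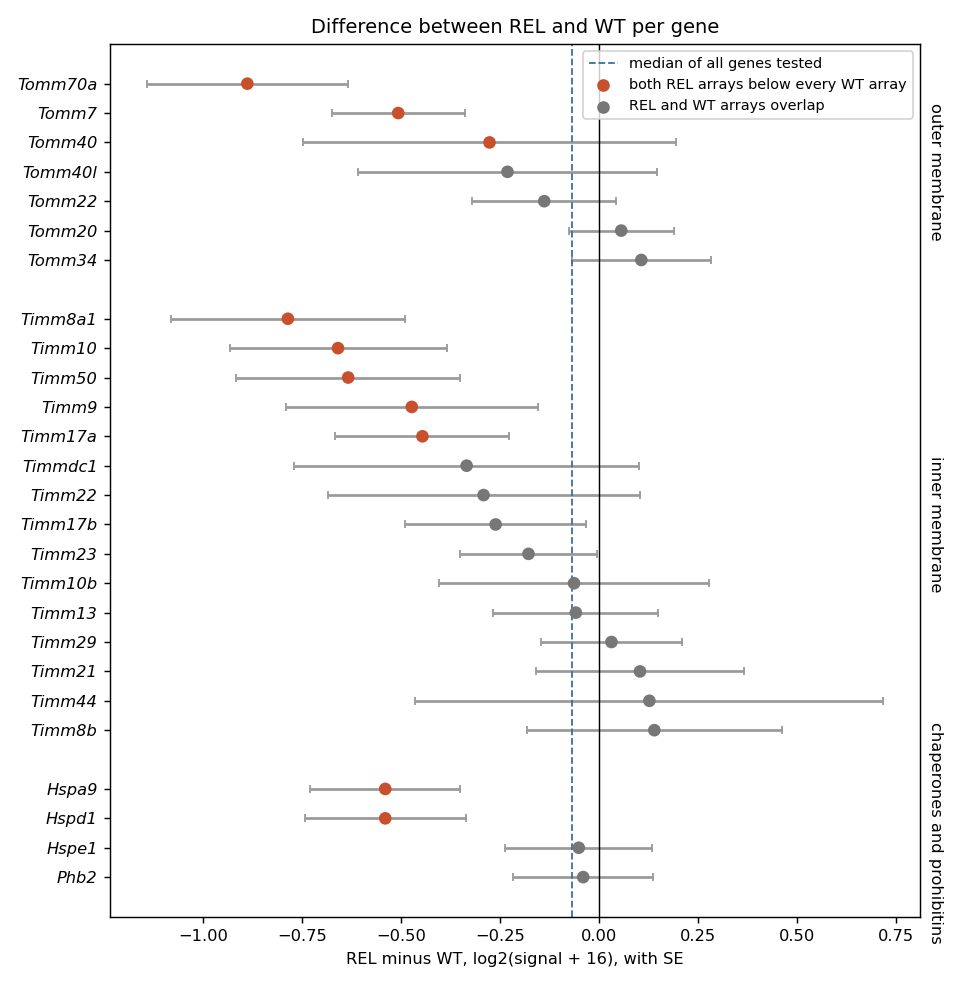
Difference between REL and WT (horizontal axis, log2(signal + 16); points with their SE, 3 WT and 2 REL arrays) for the 26 tested members, with a dashed line at the median of all genes, −0.07. Orange points mark the 10 genes with both REL arrays below every WT array, led by Tomm70a at −0.89, and grey points the 16 that overlap; Hspe1, Phb2, Timm10b, Timm13 and Tomm22 lie below 0 here and above it with median centring, and Hspe1 and Phb2 also after quantile normalization.

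Of the chaperones and prohibitins, the matrix chaperones Hspa9 and Hspd1 lay lower in both REL arrays, while Hspe1 and Phb2 were near 0. Hspa9, the mitochondrial Hsp70 that pulls in precursors, had 4135, 3538 and 4030 on the WT and 2619 and 2726 on the REL arrays. The groups did not overlap, REL replicate 2 was about as low as REL replicate 1, and the difference was −0.54 (SE 0.19, adjusted p = 0.477), a signal lower by 31.2%. A second bright probe set gave 3182, 3478 and 3595 on the WT and 1704 and 2673 on the REL arrays (−0.67, SE 0.24), and 3 dim ones, with signals of 6.56 to 77.2, lay between −0.53 and 0.10.

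Hspd1 encodes Hsp60, the ring in which imported proteins fold. It had 5370, 5823 and 4332 on the WT and 3088 and 4029 on the REL arrays, without overlap, and a difference of −0.54 (SE 0.20, adjusted p = 0.503). Hspe1 encodes Hsp10, the lid of that ring. It had 8507, 11078 and 7669 on the WT and 7630 and 9825 on the REL arrays, which overlapped, and a difference of −0.05 (SE 0.19, 95% confidence interval −0.46 to 0.36, adjusted p = 0.971; 0.12 with median centring and 0.04 after quantile normalization). Its other probe set had 6703, 7202 and 5372 on the WT and 6194 and 6577 on the REL arrays, and a difference of 0.00.

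Within each array the log2 ratio of Hspd1 to Hspe1 was −0.66, −0.93 and −0.82 for WT cells, against −1.30 and −1.28 for REL cells, a comparison chosen after these values were seen and not tested. With the other Hspe1 probe set it was −0.32, −0.31 and −0.31 for WT cells, against −1.0 and −0.70 for REL cells. By either probe set both REL arrays were under every WT array, by 0.49 and 0.54 on average, and a ratio within an array does not depend on how arrays are scaled to one another except through the added 16. These are the genes whose promoter windows share 285 bases by 1 of the 2 Hspd1 starts and 4 bases by the other. The ratio shows unequal change of the 2 signals and not which of them changed.

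Phb2 encodes prohibitin 2, which forms rings with prohibitin 1 in the inner membrane. Its brightest probe set had 5743, 6610 and 6013 on the WT and 5104 and 6917 on the REL arrays, on either side of WT, with a difference of −0.04 (SE 0.18, 0.13 with median centring and 0.01 after quantile normalization). Others were at −0.09 and −0.22. The fourth and dimmest had 51.6, 43.5 and 70.6 on the WT and 334 and 244 on the REL arrays, a difference of 2.10 (SE 0.58, adjusted p = 0.393), and with the mean of all 4 the gene was at 0.44.

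The 28 members had 62 probe sets, of which 57 passed the filter, 39 of them lower and 18 higher. Of the 57, 68.4% lay lower, against 54.4% of all 22200 probe sets past the filter. In 17 (29.8%, against 13.5%) both REL arrays lay below and in 3 (5.26%, against 10.4%) above every WT array. None was called in limma (smallest adjusted p = 0.393), as was none of all probe sets, while 10 lower ones (17.5%, against 4.56%) and 2 higher ones (3.51%, against 3.65%) had an unadjusted p under 0.05. Of the 16 genes with several probe sets past the filter, 8 had probe sets on both sides of 0. In Tomm7 all 3 agreed closely, and in Hspa9 and Tomm70a the brighter ones did. Chaperone and TOM genes have processed pseudogenes, and probe sets whose names end in x or s can bind related sequences, so that a signal from a copy cannot be told apart.

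**Figure D4:**
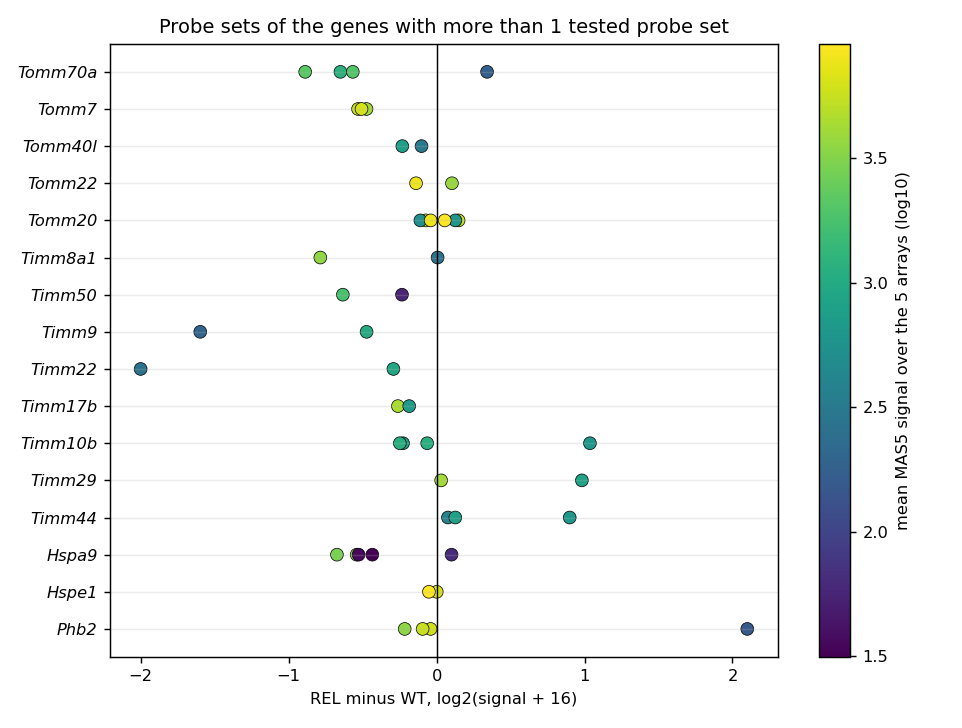
Difference between REL and WT (horizontal axis, log2(signal + 16)) of each probe set of the 16 members with more than 1 tested probe set; each point is a probe set, coloured by the log10 of its mean signal over the 5 arrays. The 3 Tomm7 probe sets lie between −0.53 and −0.47, while the dim Phb2 (2.10) and Timm22 (−2.0) probe sets stand far from the brighter ones of their genes.

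Other genes of the pathway were taken as a list of 43 genes for beta-barrel assembly, intermembrane oxidation, presequence cleavage, membrane insertion, folding, proteolysis and cristae, of which 41 were tested. Of these 29 lay lower and 12 higher, with a median of −0.23. With median centring 24 lay lower and 17 higher, with a median of −0.06, and with the mean of probe sets the median was −0.13. In limma 0 were called, and both REL arrays were under every WT array in 6 (14.6%, where all genes gave 14.3%). In 3 of the 41 both were above, where all genes gave 9.53%. Of all genes 56.8% lay lower, 40.6% with median centring and 55.7% with the mean of probe sets. Of the complex that organises cristae, 7 of 7 genes lay lower (5 with median centring, 4 with the mean of probe sets). It was 3 of 3 for matrix folding (2 under either) and 4 of 5 for beta-barrel assembly (4 under either). For presequence processing and membrane insertion it was 2 of 5 (1 with median centring, 4 with the mean of probe sets) and 1 of 3 (1 under either). The presequence motor and its regulators gave 4 of 5 (4 under either). Proteases and prohibitin partners gave 6 of 10 (5 with median centring, 7 with the mean of probe sets). For intermembrane oxidation and carrier import it was 2 of 3 (2 with median centring, 1 with the mean of probe sets).

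Dnaja3, a matrix cochaperone that works with mortalin, had 3850, 3932 and 4003 on the WT and 2903 and 2763 on the REL arrays. Both groups were tight and apart, and the difference was −0.47 (SE 0.18, adjusted p = 0.524), although with the mean of its probe sets it was 0.24. The proteases Oma1 and Yme1l1, which act on inner membrane proteins, were at −1.04 (SE 0.49) and −0.57 (SE 0.27), and the cristae gene Chchd6 at −1.32 (SE 0.65), each with both REL arrays under the whole WT range. Oma1 was at −0.55 without REL replicate 2 and −0.68 without WT replicate 1, and Chchd6 at −0.83 without WT replicate 1. Of those with a difference above 0, the smallest p belonged to the peptidase gene Xpnpep3 (1.28, SE 0.68), the carrier import factor Agk (0.87, SE 0.55), the mortalin nucleotide exchange factor Grpel1 (0.24, SE 0.19) and the protease subunit Clpx (0.65, SE 0.53). In Xpnpep3, Agk and Clpx both REL arrays were over every WT array, and Grpel1 overlapped. With the mean of probe sets Agk was at 0.24, without WT replicate 3 Xpnpep3 was at 0.83, without REL replicate 2 Clpx was at 1.06, and Grpel1 ran from 0.034 without REL replicate 2 to 0.44 without REL replicate 1. Of the partners of mortalin named here, Dnaja3 lay lower by its brightest probe set, as Hspa9 did, and Grpel1 did not. That difference was not tested. Grpel1 was the only gene above 0 among the presequence motor and its regulators, where Grpel2 was at −0.56 (SE 0.34) with overlapping arrays.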

How the data were processed

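RNA of sorted cells was amplified and labelled with biotin, per the labels' protocols, and the authors deposited 1 table of signal intensities on a linear scale for 45101 probe sets and 5 arrays. The submitters' processing notes name MAS5, with no version. It scores each array by itself, and the 2% trimmed mean was 500 on each array. The sources used here give no detection calls, probe-level values or further settings. Logs of low MAS5 signals are noisy.

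Groups were taken from the sample titles. Probe sets with exactly 1 symbol in the platform annotation were named (34958), and those with several symbols (932) or none (9211) and the 64 controls were left out of the tests. Signals were transformed as log2(signal + 16), which understates differences of dim genes. Probe sets in the lowest 40% by mean (about 23.1 in signal) were left out, and the brightest of each gene was kept. All 12082 genes were fitted in limma 3.58.1 (R 4.3.3) with group as the single term, a mean-variance trend and Benjamini-Hochberg adjustment (3 residual and 6.84 prior degrees of freedom). A gene was called at a two-sided adjusted p under 0.05. The number of arrays limits the precision. The code was tested on simulated data. No p was computed over the members as a list.

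The members and lists were chosen with earlier results of these data known. All members are named; those given array by array are the chaperones, Phb2 and, by smallest p, 6 Tomm and 8 Timm genes, and 4 partner genes per direction are named. Tomm20, Timm22, Timm44, Timm8b and Timm29 were given signals, and Hspd1 was set against Hspe1, after their values were seen. The sites to print and the split of the CACGTG counts by REL arrays were also chosen after the values were seen. The alternatives were pseudocounts of 1 and 64, leaving out 60% of probe sets or none, quantile normalization, arrays centred on their medians, averaging all probe sets per gene, no trend, the replicate number as a block, and each array left out, with probe sets chosen anew or kept. Fits of single probe sets and the second Hspe1 probe set were added after seeing the data. Tables and plots were made in Python 3.11.15 (numpy 2.4.6, pandas 2.3.3, matplotlib 3.10.9, scipy 1.17.1).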

Additional observations from a re-analysis of the deposited data

How the results depend on the processing

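No member and no import partner gene was called in limma under any of the 19 alternatives. The count over all genes, 1 as reported, was 0 with the 60% filter, no filter, the mean of probe sets, no mean-variance trend and a pseudocount of 1 or 64, 2 with quantile normalization, 3 with median centring, and 0 to 8 when an array was left out. With the replicate number as a block it was 18, with 0 members; WT replicate 3 has no partner in that fit and adds nothing to it. The titles share only numbers, and same-numbered arrays did not deviate together (correlations of −0.04 and −0.02). The median difference of the members, −0.25 as reported, was −0.077 with median centring and −0.43 to −0.070 when an array was left out, the value nearest 0 being that without REL replicate 1. The direction turned with median centring for Hspe1 (0.12), Phb2 (0.13), Timm10b (0.11), Timm13 (0.11) and Tomm22 (0.031), with quantile normalization for Hspe1 (0.039) and Phb2 (0.011), and with the mean of probe sets for Phb2 (0.44), Timm10b (0.12) and Dnaja3 (0.24); the cause was not tested. Leaving out an array gave ranges across 0 for Hspe1 (−0.23 to 0.13), Phb2 (−0.26 to 0.18), Timm10b (−0.52 to 0.29), Timm13 (−0.16 to 0.038), Timm21 (−0.086 to 0.29), Timm23 (−0.41 to 0.057), Timm29 (−0.11 to 0.17), Timm44 (−0.74 to 1.00), Timm8b (−0.38 to 0.66), Timmdc1 (−0.94 to 0.27), Tomm20 (−0.0004 to 0.11), Tomm22 (−0.44 to 0.16), Tomm34 (−0.13 to 0.34) and Tomm40l (−0.50 to 0.039). The other 12 members kept their sign throughout, 10 of them the genes whose arrays do not overlap, which fixes their sign when an array is left out. Of those 10, median centring moved Timm17a to −0.28, Timm9 to −0.30, Tomm7 to −0.34 and Tomm40 to −0.11, the mean of probe sets moved Tomm70a to −0.44, Timm8a1 to −0.39 and Timm9 to −1.04, and without REL replicate 1 Hspd1 was at −0.35 and Timm8a1 at −0.27 (−1.30 without REL replicate 2). The Hspd1 to Hspe1 log2 ratio differed by −0.56 to −0.42 over the alternatives.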

Other observations

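Probe sets that the annotation assigns to an import gene together with a second gene were left out of the comparison. The probe set shared by Tomm5, a small TOM subunit, and Gm8069 had signals of 1896, 2119 and 1798 on the WT and 1114 and 1513 on the REL arrays, each REL array being under the WT range. Its difference was −0.57 (SE 0.26) on the log2(signal + 16) scale. Those shared by Phb, the gene for prohibitin 1, and 1700071K01Rik had 2453, 3317 and 2785 on the WT and 2165 and 2447 on the REL arrays (−0.30, SE 0.23), and 481, 476 and 721 on the WT and 348 and 227 on the REL arrays (−0.93, SE 0.44). In both the REL arrays were the lowest. Those shared by Tomm6, another small TOM subunit, and Prickle4 overlapped between the groups, at −0.29 (SE 0.24) for the brighter and 0.13 (SE 0.32) for the dimmer. Which of the genes gives each signal cannot be told apart, and these values were not tested.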
